A study of Papilio machaon with 10 samples.

Results

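The genes described here are those in the gene table of the swallowtail *P. machaon* whose RNA stood apart in the fifth and final larval instar (L5) alone. They were chosen by their expression values in all 10 libraries of the series. For each gene with a maximum of at least 10 RPKM (reads per kilobase of gene and per 1000000 reads mapped), the 10 values of log2(RPKM + 1) were sorted. A gene was kept where the largest gap between neighbouring values was at least 1 and only L5 lay above it. The rule allowed for up to 150 genes, and 86 passed, so all 86 are members. The table held 15285 genes, of which 11856 reached 10 RPKM in some library, and the members are 0.725% of those. Since these same values chose the members, their height in L5 is a description and was not tested.

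Whole-body RNA was sequenced at each stage of the life cycle, with 1 library each for L5, the egg, the earlier instars (L1 to L4), and pupae and adults of either sex. The labels give no treatment and no mutation. The egg, L1 and L2 libraries pooled several individuals, whereas L5 and each of the others came from a single animal, and the sex of the larvae was not given. The larvae were reared on fennel or carrot. With 1 library per stage there is no spread between replicates, and what is particular to the fifth instar cannot be told apart from what is particular to that 1 larva or to the day of the instar on which it was taken, which was not given. In whole bodies, more cells of a type and more RNA per cell cannot be told apart either.

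The final instar of a moth or butterfly is the stage of heaviest feeding and of most of the growth. The fat body then lays down storage proteins that are used up during metamorphosis, the silk glands and gut are at full size, and epidermal cells go on to build the cuticle of the pupa. Towards its end juvenile hormone falls and ecdysteroids rise, after which the larva stops feeding, empties its gut and fastens itself for pupation. The table lists genes by locus tag alone. None of the tags (0 of 15285) is in the reference gene table used here, so no member could be given a name or a role, no list of cuticle, silk, storage, digestive or hormone genes could be counted, and the labelled stage could not be checked against marker genes. Members are therefore ordered by their level and by where else they were found.

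The reads behind each value were worked out from the steps between RPKM values, with lengths that are multiples of 3 bp. For each gene they are the fewest that give whole reads in every library. True reads can be a whole multiple of them, above all for a gene seen in a single library. The L5 library had 23274472 reads on genes, the fewest of the 10, against 23604995 to 35989828 in the others. In each library these reads exceeded the number of reads by which RPKM was scaled, by a ratio of 1.30 in L5 (17943036 reads) and of 1.05 to 1.55 in the others, so they cannot all be distinct mapped reads on the same count. Whether mates of a pair were counted apart was not given, and if they were, the intervals are too narrow. L5 also listed the fewest genes above 0, at 13935, against 14269 to 14923 elsewhere. A gene of 1 kb listed at 0 could have up to 3 reads, or 0.167 RPKM in L5 and 0.113 to 0.167 RPKM in the other libraries. This limit and the Poisson intervals below cover counting error only.

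The members spanned a wide range of levels in L5, from 10.2 to 34598 RPKM with a median of 117 RPKM. In L5, 39 members lay under 100 RPKM, 32 between 100 and 1000 RPKM, and 15 above that. The distance of L5 from the next highest library on the log2(RPKM + 1) scale ran from 1.01 to 9.79, with a median of 1.99. In contrast, the median member had 9.59 RPKM in L3, the highest of the other libraries, and 1.70 RPKM in the female adult, the lowest. The members held 7.35% of the summed RPKM of L5, against 0.101% to 0.594% of that of each other library. In reads they held 12.5% of L5 where a long gene counts for more than it does in RPKM. Of the 100 highest genes of L5, 8 were members, where members are 0.725% of the genes that reached 10 RPKM in some library. The rule favours genes that are high in L5, so nothing is read from this count.

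**Figure D1:**
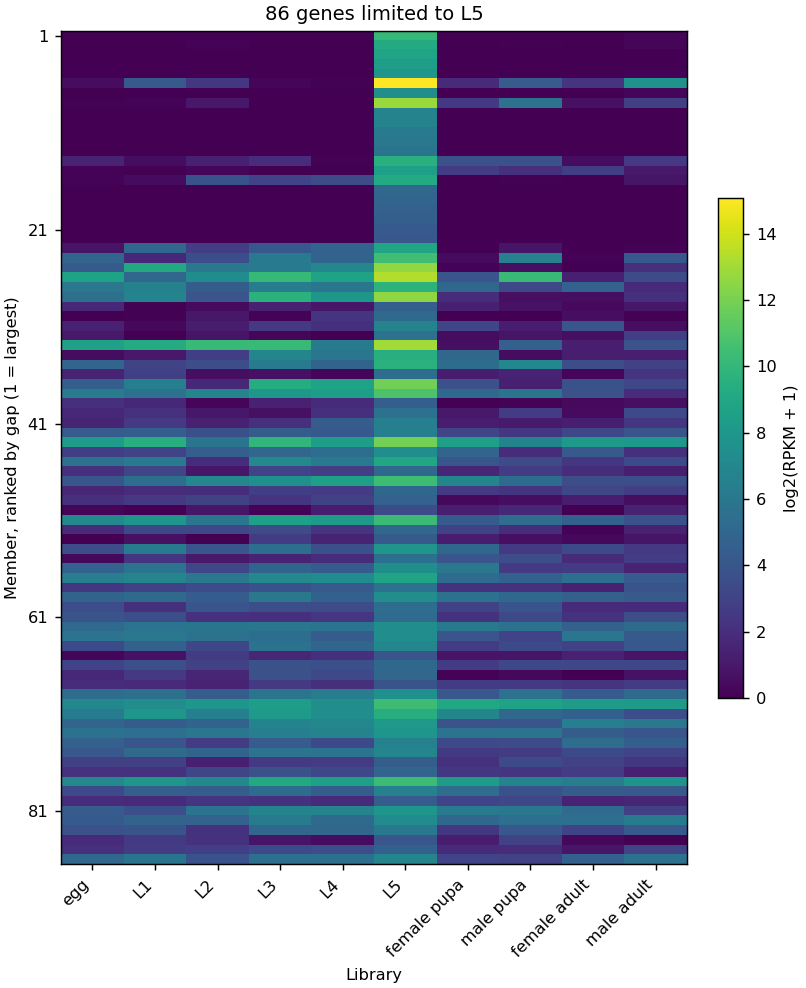
Expression of the 86 members (rows, ranked by their gap) in the 10 libraries (columns, in order of development), as log2(RPKM + 1) by colour. L5 is the highest library in every row by the rule, and 17 rows among the first 22 are at or near 0 everywhere else.

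The members fell into 2 classes by how much RNA was found outside L5, a division made after the values had been seen. In 17 members, the 9 other libraries together held at most 5 reads, and no value outside L5 reached 1 RPKM. In the remaining 69, the other libraries together held 78 reads or more, and at least 1 of them reached 2 RPKM. No member lay between.

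**Figure D2:**
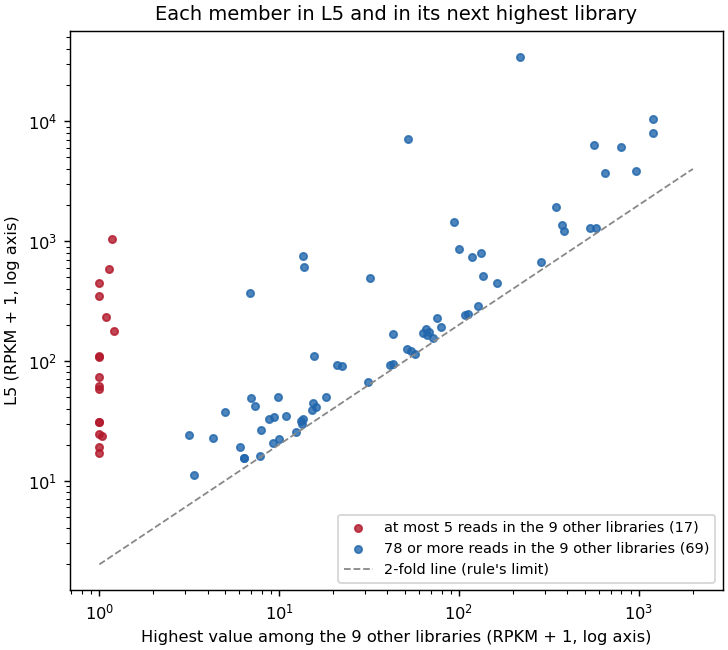
Each member's L5 value (vertical axis, RPKM + 1) against the highest value among the 9 other libraries (horizontal axis, RPKM + 1), both on log axes, with the rule's 2-fold limit as a dashed line. The 17 members with at most 5 reads elsewhere form a separate column at the left, while the 69 others run along and above the line.

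The 17 genes found in L5 and hardly anywhere else had 16.2 to 1040 RPKM in L5, with a median of 71.9 RPKM. No sequence or position of these genes was used here, so whether they belong to the animal's own genome was not tested. They held 21136 reads in L5, against 9 reads in the other 9 libraries together. Those 9 reads lay in the male adult (5), L2 (3) and the male pupa (1), and 12 of the 17 genes were listed at 0 in all 9. By comparison, 6 genes limited to the male adult by the same rule were listed at 0 everywhere else, and none (0) of the genes limited to the egg, L1 to L4, the pupae or the female adult.

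RR48_00215 had the largest gap of all members. It was listed at 1039.6 RPKM in L5, with a 95% Poisson interval of 1012 to 1068, against 0.176 RPKM, which is 1 read, in the male adult and 0 in the 8 others. RR48_00583 had 447 RPKM in L5 (interval 411 to 485) and RR48_00017 had 350.1 RPKM (333 to 368), and both were listed at 0 in the 9 other libraries. If each of those libraries had missed 3 reads, RR48_00583 was at least 193-fold higher in L5 and RR48_00017 at least 497-fold. These folds are bounds set by the depth of the other libraries. They take the L5 reads as they stand, without their counting error, and a gene with fewer reads has a lower bound. RR48_00009, with 20 reads in L5 at the fewest (95% Poisson interval 12.2 to 30.9), was at least 6.68-fold higher on this basis.

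Within this class 3 genes with consecutive tags formed the only run of 3 among all members. RR48_00891 had 585 RPKM in L5, against 0.132 RPKM in the male adult, 0.0983 RPKM in L2, 0.0497 RPKM in the male pupa and 0 in the 6 others. Its 8064 reads in L5 set against 5 elsewhere give a ratio of 18055 after depth, with an exact 95% interval of 7734 to 55621. RR48_00892 had 229 RPKM in L5, against 0.0870 RPKM in the male adult and 0 in the 8 others. RR48_00893 had 22.7 RPKM in L5, against 0.0347 RPKM in L2 and 0 in the 8 others. Levels in L5 thus differed within the run, while all 3 genes were at 1 read or 2 at most in any other library. The genes on either side did not share the pattern. RR48_00890 had 36.0 RPKM in L5, against 0.224 to 41.0 RPKM in the 9 other libraries, and RR48_00894 had 40.5 RPKM in L5, against 17.0 to 55.5 RPKM.

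The 17 genes were also mostly alike in locus tag, which the rule did not use. Of these, 16 had a locus tag number under 1200, a limit set after seeing the tags, whereas 7.72% of all genes in the table had one. The exception was RR48_02553, with 177 RPKM in L5, against 0.206 RPKM in the male adult and 0 in the 8 others. The other class of members had 10 of 69 such tags. Among all members the share was 30.2%, and among the genes limited to each other library it lay between 4.61% and 10.0%. Of the 47 male adult genes with at most 10 reads elsewhere, 3 had such a tag. Whether tag numbers follow the scaffolds of the assembly was not tested.

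The lengths worked out for these genes were short, within the limits of the method. The choice of these genes was not free of length. RPKM divides by length, and at a given RPKM a short gene has fewer reads elsewhere. How far this accounts for the short lengths was not tested. For a gene seen in a single library only the shortest length that gives whole reads is known, so lengths were worked out from the L5 value alone for every gene compared. On that basis the 17 genes had a median of 171 bp and a maximum of 489 bp. The 69 other members had a median of 642 bp. The median over all 9879 genes that reached 10 RPKM in some library and had 20 reads or more in L5 was 699 bp. At most 600 bp was reached by 17 of the 17, by 33 of the 69 and by 45.1% of the 9879 genes. Low tags and short lengths went together in the whole table, so these are not separate properties. Among genes with a tag under 1200 and 20 reads or more in L5, 9 of 10 other members and 76.7% of 571 genes that are not members were at or under 600 bp, against 43.0% of the 9282 genes with higher tags. The median was 177 bp for the 16 low-tag genes of the class, against 318 bp for those 571 genes. This measure runs too low for single genes, since true lengths can be whole multiples of it. RR48_00891 came to 6 bp from L5 alone and to 768 bp from all libraries, and RR48_00893 to 363 bp and 1089 bp. From all libraries the median was 225 bp for the 17 genes, against 1029 bp for the 69 other members and 981 bp for all genes, but the 12 genes listed at 0 elsewhere gain nothing from the other libraries, so that comparison is uneven.

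**Figure D3:**
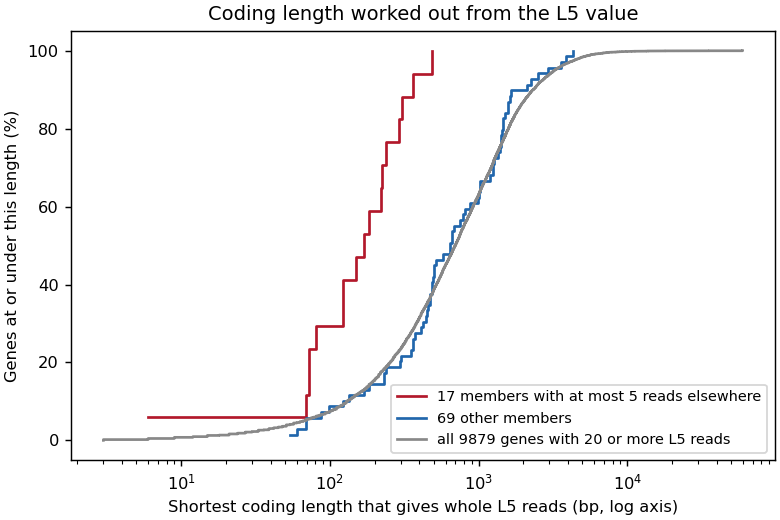
Share of genes (vertical axis, percent) at or under each coding length (horizontal axis, bp on a log axis), with length taken as the shortest that gives whole reads in L5. The 17 members with at most 5 reads elsewhere lie left of the 69 other members, which follow the 9879 genes with 20 or more L5 reads.

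The 69 other members were present at other stages, at a lower level. Their median was 153 RPKM in L5, against 20.7 RPKM in L3, 20.0 RPKM in L4, 11.8 RPKM in L1, 9.45 RPKM in the egg, 8.12 RPKM in L2, and 5.13 to 7.26 RPKM in pupae and adults. The next highest library was a larva in 43, a pupa in 15, an adult in 8 and the egg in 3. Among the larvae L3 was next highest in 18, L4 in 13, L1 in 9 and L2 in 3. The matching shares over other genes were not worked out, so these counts only describe the 69. In 52 of the 69 (75.4%) all of L1 to L4 reached 1 RPKM, against 85.4% of the 11770 genes that reached 10 RPKM somewhere and are not members. All pupae and adults did in 45 (65.2%), against 81.0% of those genes. Of the 69, 3 lay under 1 RPKM in all of L1 to L4 and 5 in all pupae and adults, and the matching shares over other genes were not worked out. The mean of log2(RPKM + 1) was higher in L1 to L4 than in pupae and adults in 49 of the 69 (71.0%), against 41.2% of the same 11770 genes. The median difference was 0.82 in the 69, against -0.18 in the 11770. The 11770 include genes highest in a pupa or an adult, which no member can be. The rule and the split into classes used all these values, so nothing is read from these counts, shares and differences.

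The highest gene of the L5 library was a member. RR48_08692 had 34598 RPKM in L5, against 218 RPKM in the male adult, 19.3 in the male pupa, 18.3 in L1, 4.55 in L2, 4.11 in the female adult, 2.52 in the female pupa, 0.396 in the egg, 0.133 in L3 and 0.0593 in L4. It alone took 5.63% of the L5 reads. RR48_08691, the preceding tag, had 7079 RPKM in L5, against 51.1 RPKM in the male pupa, 6.21 in the male adult, 5.00 in the female pupa and at most 0.925 in the 6 others. Both genes were thus almost silent in L4, at 3 and 2 reads, and far above it in L5.

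Another member lies close by. RR48_08696, named after its values were seen, had 370 RPKM in L5, against 5.88 RPKM in the female adult, 5.35 in the female and 3.32 in the male pupa, 1.03 in the male adult and at most 0.134 in the egg and L1 to L4. RR48_08697, the next tag, is not a member because it stayed high in pupae. It had 662 RPKM in L5, against 639 RPKM in the female and 396 in the male pupa, 1.75 in the male adult, 1.73 in the female adult and at most 0.497 in the egg and L1 to L4. The coding lengths of these 4 genes were 2109 bp for RR48_08692, 2121 bp for RR48_08691 and 2250 bp for RR48_08696 and RR48_08697. Similar lengths were not particular to them. RR48_08693, which stands between them, has 2016 bp and had 1.69 RPKM in L5, against 118 RPKM in the female adult, and RR48_08688 has 2304 bp and had 820.4 RPKM in L5, against 5900 RPKM in the male adult. How reads shared between similar copies were assigned was not given, and whether these genes share sequence was not tested, so the split of reads among neighbours is uncertain.

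**Figure D4:**
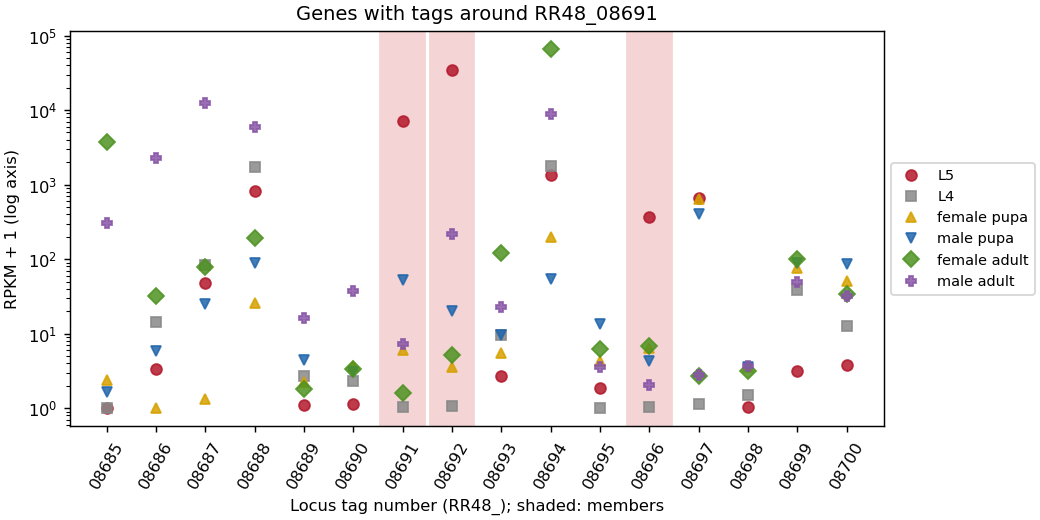
RPKM + 1 (log axis) of 16 genes with consecutive tags around RR48_08691 in L5, L4, the pupae and the adults, with the 3 members shaded. RR48_08691, RR48_08692 and RR48_08696 are highest in L5 by the rule, though RR48_08692 also reached 218 RPKM in the male adult and RR48_08691 reached 51.1 RPKM in the male pupa, while RR48_08697 is high in L5 and both pupae.

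The 4 other members among the 6 highest in L5 were also present in earlier larvae. RR48_00648 had 10375 RPKM in L5, against 1204 RPKM in the male pupa, 1096 in L3, 428 in L4, 427 in the egg, 161 in L2, 30.1 in L1, 14.4 in the female pupa, 10.1 in the male adult and 1.49 in the female adult. It had the highest egg and male pupa values of any member, and the male pupa lay far above the female pupa. RR48_15002 had 8035 RPKM in L5, against 1197 RPKM in L3, 1186 in L2, 623 in L1, 390.5 in the egg, 77.2 in L4, 23.2 in the male pupa, 13.7 in the male adult, 1.42 in the female adult and 0.526 in the female pupa. It fell to its larval minimum in L4, just before the peak, and was the highest member in L2 and in L3.

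RR48_01519 had 6381 RPKM in L5, against 566 RPKM in L1, 124 in L4, 72.2 in L3, 64.7 in L2, 18.3 in the egg and no more than 3.20 after pupation. RR48_05676 had 6146 RPKM in L5, against 799.9 RPKM in L3, 250.1 in L4, 111 in L1, 46.4 in eggs, 14.9 in L2 and no more than 3.17 after pupation. Both were larval genes with little RNA after pupation, and their highest earlier instar differed. The 6 members named by level, from RR48_08692 to RR48_05676, held 71.1% of the summed L5 RPKM of all members.

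Other members were present throughout the life cycle. RR48_14868, the highest member in L1, had 3869 RPKM in L5, against 969 RPKM in L3, 721 in L1, 361 in the female pupa, 332 in L4, 316 in the egg, 269 in the female adult, 262 in the male adult, 111 in the male pupa and 57.6 in L2. RR48_10353, the highest member in L4, had 3682 RPKM in L5, against 646 RPKM in L3, 431 in L4, 91.8 in L1, 22.3 in the egg, 2.31 in L2 and 1.54 to 12.5 in pupae and adults. At 5862 bp it is a long gene, and it held 387320 reads in L5. RR48_03394, the highest member in the female pupa and in both adults, had 1278 RPKM in L5, against 535 RPKM in the female and 433 in the male pupa, 345 in L3, 319 in the female adult, 299 in the male adult and 129 to 246 in L4, L2, L1 and the egg.

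Against L4 alone, 64 of the 86 members were at least 4-fold higher in L5 on the RPKM + 1 scale, where 2.82% of all 11856 genes were. Against both pupae, 68 members were, and 7.62% of all genes. The rule used both contrasts, so nothing is read from these counts. In 7 members the value rose at each step from L1 to L5. One of these is RR48_13298, which had 1905 RPKM in L5, against 345 in L4, 263 in L3, 117 in L2 and 48.6 in L1. The step from L4 to L5 is a rise by the rule, and the share over all genes was not worked out. Nothing is therefore read from the count of 7. The 79 other members had at least 1 step without a rise, among them the genes at 0 before L5 and RR48_15002, which fell between L3 and L4.

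Genes with adjacent locus tags were members together in 13 of 86 cases, in 6 runs. Besides the run of 3 and RR48_08691 with RR48_08692, these were RR48_01084 with RR48_01085, RR48_09551 with RR48_09552, RR48_13943 with RR48_13944 and RR48_15303 with RR48_15304. The share of 15.1% compares with 0% to 31.3% among the genes limited to each other library. Those sets differ in size, from 20 to 405 genes, so the shares are not on an equal footing. Members of a run could differ in how narrowly they were limited. RR48_13944 had 606 RPKM in L5, against 12.8 RPKM in L2, 10.4 in L4, 7.04 in L3 and at most 0.789 elsewhere, whereas RR48_13943 had 287 RPKM in L5, against 127 in L4, 112 in L3, 91.3 in the female adult, 64.1 in the male adult and 13.8 to 29.5 in the 5 others.

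The genes next to members were examined as well, since the rule did not choose them. Of 114 such neighbours that reached 10 RPKM and are not members, 17 had their highest value in L5, or 14.9%. Over all genes that are not members the share was 3.43%. The same comparison for the 9 other libraries gave 13.8% to 37.3% among neighbours, against 5.02% to 25.1% over all, with the neighbours higher in each library. No test was made, and the values do not single out L5.

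By the same rule, 14.4% of the 11856 genes were limited to some 1 library. Next to the 86 of L5 there were 20 genes for L3, 34 for L1, 82 for L4, 104 for the egg, 179 for L2, 217 for the female adult, 252 for the male pupa, 326 for the female pupa and 405 for the male adult. On the RPKM values as deposited, L5 thus lay in the middle of this order and close to L4. The median distance from the next highest library was 1.99 for L5 genes, against 1.36 for the female pupa at the lowest and 3.24 for L2 and the male adult at the highest. With 1 library per stage the error of these counts could not be estimated. After scaling each library to its 75th percentile, which is lowest in L5, 160 genes passed for L5, among them all 86 members. The counts for the other libraries after this scaling were not worked out, so the place of L5 in the order is known only without it.

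**Figure D5:**
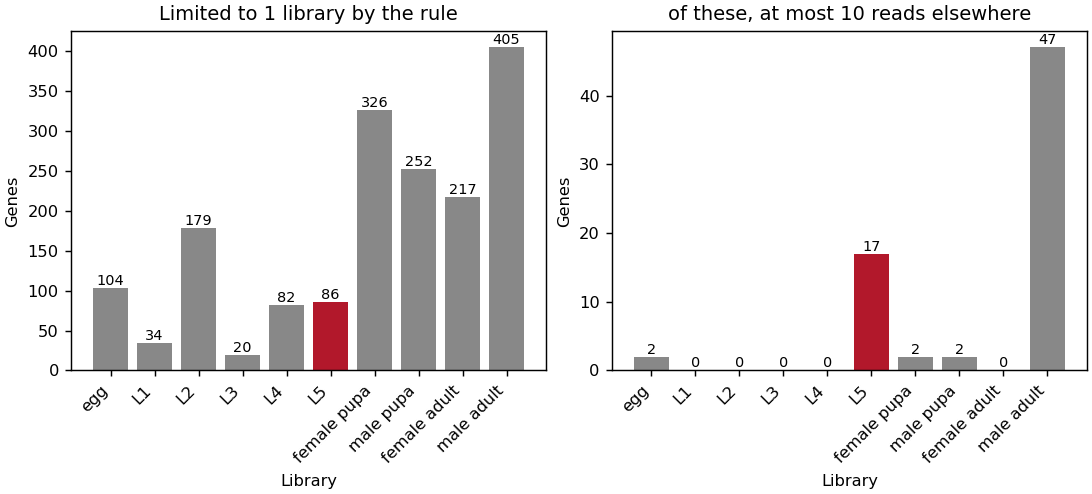
Number of genes limited to each library by the same rule (left) and of those with at most 10 reads summed over the 9 other libraries (right), by library in order of development, with L5 in red. L5 had 86 and 17 genes, against 405 and 47 in the male adult.

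The limits of the rule cut through a continuous range. Just inside the limit on the gap, RR48_08420 stood at 1.01, with 114 RPKM in L5, against 56.3 RPKM in L1, and RR48_15304 stood at 1.03, with 24.3 RPKM in L5, against 11.4 in L4. Just outside, RR48_08196 and RR48_00552 both stood at 0.98, with 14.5 RPKM in L5, against 6.84 in L2, for the first and 87.5 RPKM in L5, against 43.8 in L3, for the second. Just inside the limit on the maximum were RR48_10657 at 10.2 RPKM and RR48_00566 at 14.4 RPKM in L5. Just outside were RR48_01102 at 9.57 RPKM, which was listed at 0 in the 9 other libraries, and RR48_01284 at 9.54 RPKM.

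The genes outside the set with the profile most like the members' mean were found by Pearson's correlation of log2(RPKM + 1) over the 10 libraries, as a description. RR48_12343 was closest (r = 0.95), with 29.4 RPKM in L5, against 14.6 in L4 and 7.59 to 10.9 in the 8 others. RR48_03759 followed (r = 0.92), with 126 RPKM in L5, against 68.2 in L3 and 34.7 to 63.8 in the 8 others. RR48_13315 (r = 0.88) had 2108 RPKM in L5, against 147 in L3 and at most 4.84 in the 8 others. It failed the rule because its largest gap lay below L3, which left L3 as well as L5 above it.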

How the data were processed

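RNA was measured in 10 whole-body libraries of *P. machaon*, 1 per stage. The authors sequenced poly-A RNA as paired ends and deposited RPKM values for 15285 genes. The submitters' processing notes list TopHat 1.0.12 and 1.4.1 with no role. The counting tool and the build are not given in the sources used here. All 10 columns matched a library by name (0 unmatched).

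Each library's RPKM denominator was solved from the steps between values, with lengths in steps of 3 bp. All 10 came out whole to within 2.64e-07, and whole reads (tolerance 1e-05) were found for all 15285 genes. The method was tested on simulated data. Those data were built with the denominators and lengths solved here, so the test checks the code and not how the deposited values were made. Reads describe depth only. No test was possible with 1 library per stage, so values are descriptions. Intervals are exact 95% Poisson or binomial intervals.

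The members and lists were chosen with earlier results of these data known. Genes were named by fixed rules: the 6 largest gaps, the 6 highest in L5, those next to the limits, the highest member in each other library, runs of 3 tags, and the 3 most similar genes. The genes RR48_00009, RR48_02553, RR48_08688, RR48_08693, RR48_08696, RR48_08697, RR48_00890, RR48_00894 and RR48_13298 and the pairs of tags were named after their values were seen. Python 3.11.15, numpy 2.4.6, pandas 2.3.3, scipy 1.17.1 and matplotlib 3.10.9 were used. The alternatives were another pseudocount, other scalings, filters and gaps, and leaving out each other library.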

Additional observations from a re-analysis of the deposited data

How the results depend on the processing

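The number of genes limited to L5 was 86. It rose to 160 with 75th percentile scaling and to 133 where L5 only had to lie above every other library by 1, and fell to 42, all of them members, with a gap of at least 2. Leaving out 1 other library gave 81 to 128 genes, the highest without L3, and kept 77 to 86 of the members. The remaining alternatives were a pseudocount of 0.1, libraries rescaled to the same sum, and maximum RPKM filters of 5, 20 and none. They gave 78 to 98 genes and kept 77 to 86 of the members. The fewest members were kept with libraries rescaled to the same sum, where 87 genes passed. Members with a member at a neighbouring tag numbered 22 with tags up to 5 apart, against 13, and 15 by adjacent rows of the table, an alternative chosen after seeing the data. The share of L5 held by the members was 12.5% of reads, against 7.35% of summed RPKM. The median gap of the 86 members lay between 1.99 and 2.41 with the other pseudocount, with both scalings and with each other library left out. No paired analysis was possible because each stage has 1 library. Depth limits the low values only.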
